A study of Rattus norvegicus with 3 samples.

Results

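The regions described here are 207 loci in germ cells of the adult rat testis at which a peak of estrogen receptor alpha (ERα) and a peak of estrogen receptor beta (ERβ) overlapped and neither overlapped a peak of the mock immunoprecipitation. They were chosen from the 3 deposited peak lists, which hold 33825 usable peaks. Every ERα and ERβ peak sharing 1 bp or more with a mock peak was set aside. An ERα peak that was left and shared 1 bp or more with an ERβ peak that was left became a locus, and it was paired with the ERβ peak of highest score among those it touched. The 207 loci are 4.72% of the 4385 ERα peaks free of mock. Seen from the other receptor, 207 of the 11537 mock-free ERβ peaks touched a locus, which is 1.79%. Presence and absence of overlap chose these loci, so those counts are a description and no test is attached to them.

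ERα and ERβ, the products of Esr1 and Esr2, are nuclear receptors: ligand-activated transcription factors that bind DNA as dimers. Their classical sites are estrogen response elements, short palindromes, and they can also be held at DNA through other transcription factors. In the testis, where androgens are aromatised to estrogens locally, both receptors have been described in cells of the seminiferous tubule. A mock immunoprecipitation with non-specific immunoglobulin recovers chromatin that sticks to antibody or beads, or that is sequenced and mapped in excess, such as repeated sequence. The loci address where both receptor antibodies, and not the mock, gave a call. The absence of a mock call does not show an absence of mock signal.

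Chromatin immunoprecipitation and sequencing was done on germ cells enriched from testes of male Holtzman rats aged 75 to 90 days, with no treatment listed, with 1 library for an anti-ERα antibody, 1 for an anti-ERβ antibody and 1 for anti-rabbit IgG as mock. The cells came from whole enzymatically dispersed tubules after hypotonic lysis of interstitial cells and filtering through meshes of 70 and 40 µm, so they are enriched and not pure, and no step that separates germ cell stages is described. With 1 library per antibody there is no replicate error and no test between antibodies. Peak lists hold no expression values, so the germ cell label could not be checked against marker genes, and the number of animals per library is not given in the sources used here. Read depth is unknown, and every interval below is a 95% exact binomial (Clopper-Pearson) interval for counting error only, which treats clustered peaks as independent. Scores are the authors' values per peak, with no unit in the lists, and a score or rank is read within its own list.

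The median locus scored above the median of each receptor list but below the peaks called with all 3 antibodies, and the loci spanned most of the range of ranks. Of the 207 loci, 145 stood in the upper 50% of the ERα list, 148 in that of the ERβ list and 109 (52.7%) in both. The ERα peaks of the loci had scores from 34.7 to 153, with a median of 45.5. The median of all mock-free ERα peaks was 38.7, and that of the 703 ERα peaks touching both other lists was 96.7. In rank, the median locus stood in the top 27.2% of the 5347 ERα peaks, and the highest in the top 4.19%. The 203 ERβ peaks chosen as partners had scores from 30.01 to 170, with a median of 39.7, against 34.0 for all mock-free ERβ peaks and 92.2 for the ERβ peaks touching both other lists. Their median rank was the top 21.3% of the 12728 ERβ peaks. Peaks shared with the mock instead of the other receptor had somewhat lower medians within the same lists, at 42.1 for the 242 ERα peaks with mock outside ERβ and 37.0 for the 454 ERβ peaks with mock outside ERα.

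High score with one antibody did not require high score with the other. The ERα score reached 50 at 75 loci (36.2%), against 8.14% of all mock-free ERα peaks, and the ERβ score at 62 loci (29.95%), against 3.2% of all mock-free ERβ peaks. Both reached 50 at 35 loci, ERα alone at 40, ERβ alone at 27 and neither at 105. In the upper 25% of both lists by rank stood 63 loci (30.4%, interval 24.2 to 37.2), and in the lower 50% of both stood 23 (11.1%). The plot of scores shows these 4 classes.

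**Figure D1:**
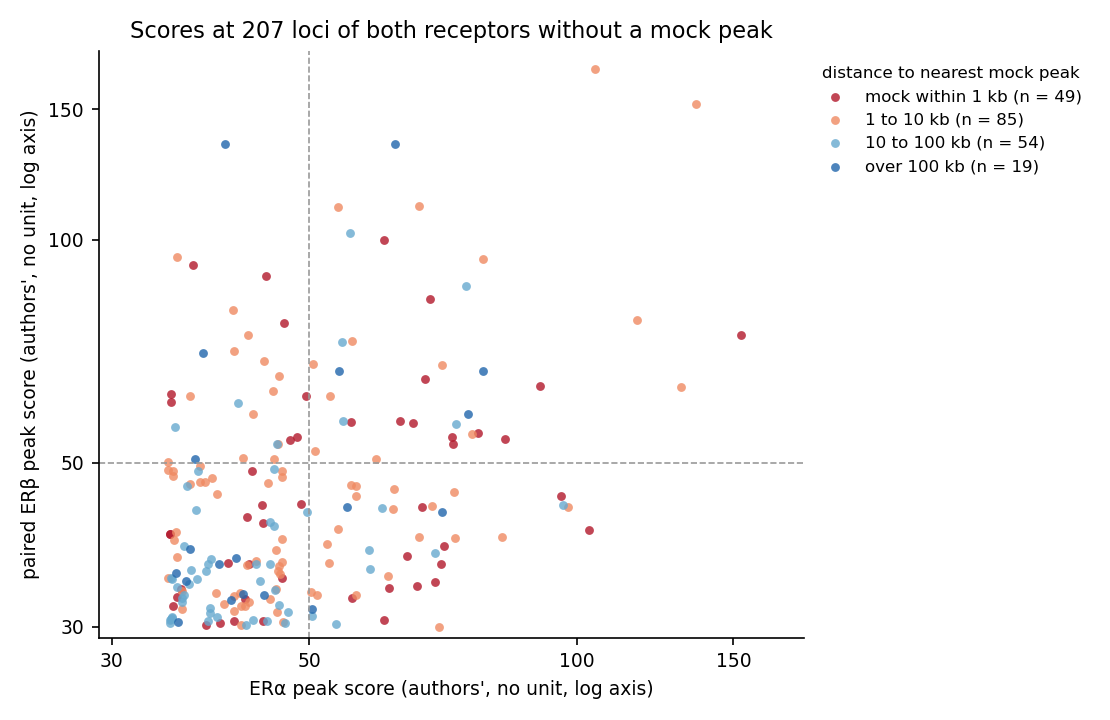
ERα score (horizontal, log axis) against the score of the paired ERβ peak (vertical, log axis) at the 207 loci, 1 point per locus, coloured by the distance from the ERα peak to the nearest mock peak; dashed lines mark a score of 50. Of the points, 35 lie at the upper right of the dashed lines and 105 in the lower left, and all 4 distance classes occur in both.

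The share of mock-free peaks that formed a locus was low and level over most of each list and higher at its top. With the mock-free ERα peaks divided into 10 parts by score, the lowest, with scores up to 35.2, held 17 loci among 439 peaks (3.87%, interval 2.27 to 6.13). The next 5 parts held between 1.83% and 2.51%, the seventh 2.97% and the eighth 3.88%. The ninth held 8.22% (5.82 to 11.2), and the tenth, with scores from 48.5 to 227, held 78 loci among 438 peaks (17.8%, 14.3 to 21.7). In the ERβ list the lowest 9 parts lay between 0.607% and 1.56%, and the tenth, with scores from 43.1 to 252, held 90 partners among 1153 peaks (7.81%, 6.32 to 9.51). Most high-scoring receptor peaks free of mock were thus not at a locus: 282 of the 357 mock-free ERα peaks with a score of 50 or more had no mock-free ERβ partner.

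**Figure D2:**
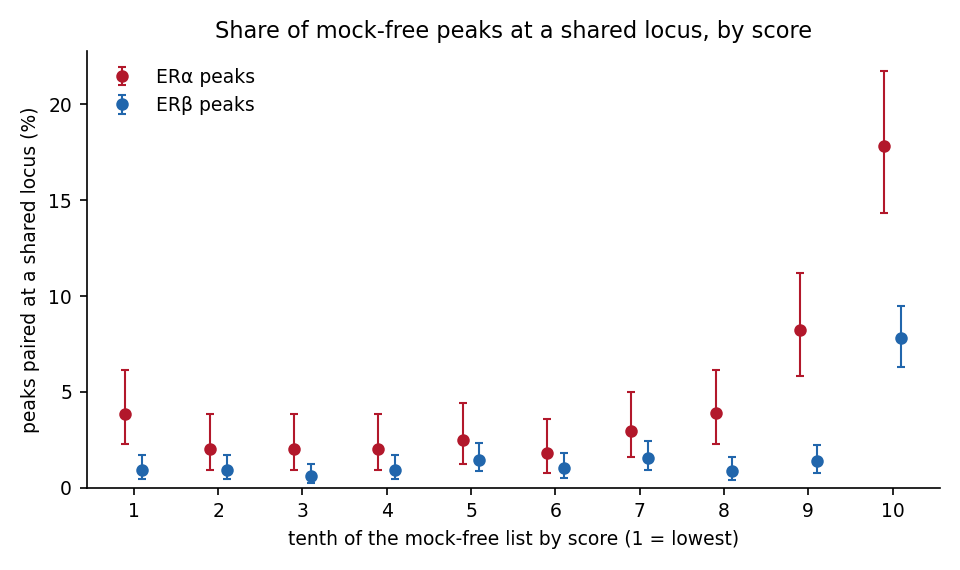
Share of mock-free ERα peaks (red) and mock-free ERβ peaks (blue) that are paired at a locus, in percent, for 10 parts of each list ordered by score; bars are 95% exact binomial intervals. The highest part stands at 17.8% for ERα and 7.81% for ERβ, above each of the lowest 8 parts of its own list.

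The 10 leading loci are those with the lowest sum of ranks in both lists, and most of them lay near mock. In order, their ERα peaks lay 2165, 2190, 108, 1598, 2266, 1511, 5729, 10253, 135589 and 424 bp from the nearest mock peak. At chr1:54959836-54961020 the ERα score was 136 (rank 259) and the ERβ score 153 (rank 219), and the paired peaks overlapped by 1020 bp. The locus chr16:22126536-22127039 had the highest ERβ score of all loci, 170 (rank 188), with an ERα score of 105 (rank 341). Both scores thus reached 100 at these 2 loci and at no other. The highest ERα score of all loci, 153, stood at chr1:99033812-99035011, where the ERβ score was 74.4 and mock peaks flanked the locus on both sides, the nearer one, of score 37.4, at 108 bp and the other at 118 bp.

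Several further leading loci had a high ERα score beside a lower ERβ score, or the reverse. At chr14:22021328-22022821, whose ERα peak was the widest of all loci at 1494 bp, the scores were 131 for ERα and 63.4 for ERβ. At chr2:137391239-137392111 they were 117 and 77.9, and the peak midpoints were 14 bp apart. At chr9:4408462-4409003 they were 62.4 and 135. That ERβ peak, at 4408531 to 4409697, was the partner of a second locus as well, with an ERα score of 40.3. Of the other leading loci, chr1:11912722-11913213 scored 66.5 and 111, chr9:12170503-12171298 scored 78.5 and 94.1, chr20:27462604-27463211 scored 75.2 and 86.6, and chr14:21685882-21686703 scored 68.4 and 83.2, each in the order ERα and ERβ. At the other end of the ranking, the 3 last loci had ERα scores of 35.0 or 34.9 and ERβ scores of 30.4 to 30.7: chr14:98374796-98375389, chr2:136357226-136357821 and chr15:91184181-91184776.

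Paired peaks mostly covered the same stretch of DNA. The median overlap was 416 bp, with median peak widths of 588 bp for ERα and 579 bp for ERβ, and the midpoints lay a median of 147 bp apart. The overlap covered at least 50% of both peaks at 138 loci (66.7%, interval 59.8 to 73.0), and 84 loci (40.6%, 33.8 to 47.6) had midpoints within 100 bp. At 52 loci one peak lay wholly within the other: the ERβ peak within the ERα peak at 24, the reverse at 28. The ERβ midpoint lay at the higher position at 105 loci and at the lower at 102, so neither side prevailed.

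Coincidence was near complete at some loci and marginal at others. The pair at chr7:1628414-1628971 shared 553 bp, 98.8% of the stretch that the 2 peaks cover together, with scores of 36.8 for ERα and 46.8 for ERβ. At chr13:33618803-33619619 the midpoints differed by 0.5 bp, and the scores were 60.8 and 99.9. At chr7:134950930-134951543 the shared part was 95.8%. By contrast, 19 loci (9.18%) overlapped by less than 100 bp. The smallest overlaps were 2 bp at chr8:92021403-92021976, 5 bp at chr3:151824710-151825275 and 14 bp at chr1:55468715-55469394. Just outside the rule, 12 mock-free ERα peaks had a mock-free ERβ peak within 100 bp without touching it, the closest at chr18:20795500-20796056 with a gap of 12 bp, chr6:65982318-65982876 with 19 bp and chr3:143892260-143892814 with 23 bp. Their scores were 36.8, 36.7 and 36.9 for ERα and 37.3, 31.8 and 73.5 for ERβ.

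Other pairings of the lists had a similar geometry. An overlap of at least 50% of both peaks was found at 65.3% (58.9 to 71.3) of the 242 loci of ERα with mock outside ERβ, and at 64.1% (59.5 to 68.5) of the 454 loci of ERβ with mock outside ERα. Midpoints lay within 100 bp at 30.2% (24.5 to 36.4) and 31.1% (26.8 to 35.5) of these, against 40.6% at the loci of both receptors. Where the ERα peak touched both other lists, the ERα and ERβ peaks coincided more closely, with 79.9% (76.8 to 82.8) overlapping by at least 50% of both and a median midpoint distance of 97.5 bp. Those peaks were also wider, with medians of 754 and 843 bp. No test of these differences was made, since the same overlaps chose the groups.

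**Figure D3:**
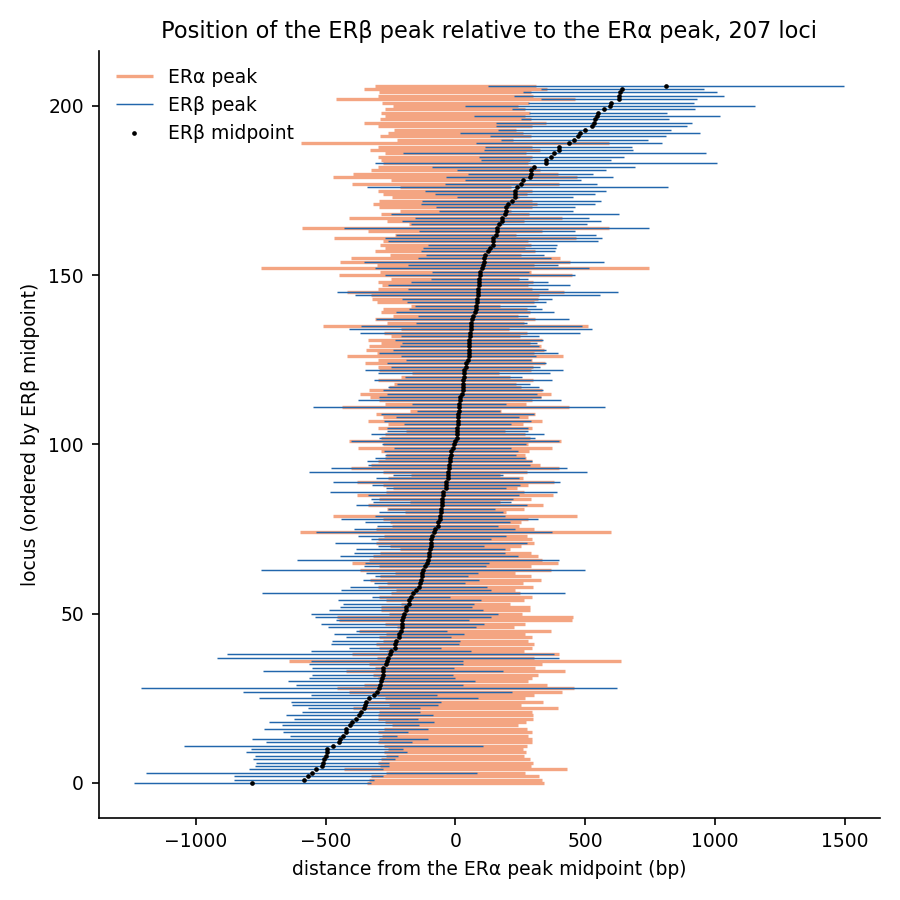
Position of the ERα peak (orange) and its paired ERβ peak (blue) at each of the 207 loci, in bp from the ERα midpoint, with loci stacked in the order of the ERβ midpoint (black dots). The dots fall on both sides of 0, 105 at higher and 102 at lower positions, and 84 lie within 100 bp of it.

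Although none of the paired peaks touched a mock peak, most loci lay close to one. The ERα peak of a locus was a median of 3259 bp from the nearest mock peak, with a range of 1 to 292698 bp. Among the other 4178 mock-free ERα peaks the median was 32104 bp, over the 4174 that lie on a sequence with a mock peak. A mock peak stood within 10 kb at 134 loci (64.7%, interval 57.8 to 71.2), against 24.3% (23.0 to 25.6) of the other mock-free ERα peaks and 26.2% of all mock-free ERα peaks together. Within 1 kb it stood at 49 loci (23.7%), against 5.74% of the others. Mock peaks flanked the locus on both sides within 10 kb at 55 loci (26.6%).

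The nearness was not limited to loci of high score or to the densest regions. Among ERα peaks with a score of 50 or more, a mock peak lay within 10 kb at 56 of 75 loci (74.7%, 63.3 to 84.0) and at 116 of the 282 others (41.1%, 35.3 to 47.1). Under 50, the figures were 78 of 132 loci (59.1%) and 898 of 3896 others (23.0%). Outside 1-Mb windows with 20 or more mock peaks, 64 of 122 loci (52.5%, 43.2 to 61.6) and 827 of 3821 others (21.6%, 20.3 to 23.0) had a mock peak within 10 kb. Overlap with mock was part of the rule and there is 1 library per antibody, so these shares are descriptions. The part of mock signal in the receptor calls was not tested.

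**Figure D4:**
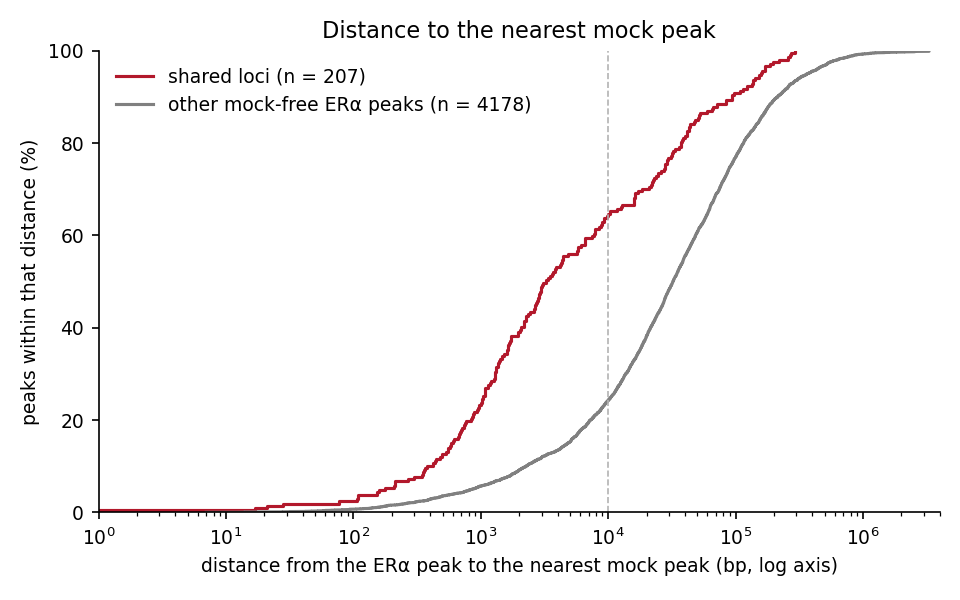
Cumulative share (percent) of the 207 loci (red) and of the other 4178 mock-free ERα peaks (grey) whose nearest mock peak lies within the distance on the horizontal axis (bp, log axis); the dashed line marks 10 kb. At that line the loci have reached 64.7% and the other peaks 24.3%.

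A part of the loci also lay near regions called with all 3 antibodies. The distance from a locus to the nearest ERα peak touching both other lists had a median of 43407 bp and a lower quartile of 4816 bp. Such an ERα peak stood within 10 kb of 72 loci (34.8%, 28.3 to 41.7), against 111 of the other 4178 mock-free ERα peaks (2.66%, 2.19 to 3.19). Outside the windows with 20 or more mock peaks this was 27 of 122 loci (22.1%, 15.1 to 30.5) and 47 of 3821 others (1.23%, 0.905 to 1.63). The mock peak nearest to a locus had a median score of 39.1, against 35.0 for all mock peaks. It reached 50 at 54 loci (26.1%), and at chr1:55717089-55717836, 345 bp away, it stood at 1288.

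The nearest mock peaks were almost in contact at a few loci. At chr2:156211089-156211669, with scores of 43.2 for ERα and 48.7 for ERβ, 1 bp separated the ERα peak from a mock peak of score 39.8. From the ERα peak, the gap was 17 bp at chr16:66342466-66342854 and 21 bp at chr15:50056342-50057362. From the ERβ peak, it was 16 bp at chr14:21685882-21686703, a leading locus, and 20 bp at chr9:106215034-106215522. On the other side of that limit, 10 of the 703 ERα peaks touching both lists overlapped mock by less than 100 bp, the least by 2 bp at chr17:48442227-48442820.

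A smaller set lay far from mock. A mock peak stood within 100 kb of 188 loci (90.8%), against 3215 of the other 4178 mock-free ERα peaks (77.0%). Loci were thus less often this far from mock than those peaks were. There were 19 loci (9.18%) more than 100 kb from any mock peak, with ERα scores of 35.4 to 78.4 (median 41.4) and ERβ scores of 30.5 to 135 (median 38.2). The most distant were chr7:134950930-134951543 at 292698 bp, chr1:148643322-148644111 at 274123 bp, chr19:27859352-27859872 at 267793 bp, chr4:98377992-98378525 at 259738 bp and chr13:84170354-84170839 at 220325 bp. In the first of these, with scores of 41.4 for ERα and 37.1 for ERβ, both peaks covered nearly the same stretch. In the second the scores were 70.5 and 42.9, and in the fourth 38.0 and 70.4. Of the 19, 7 pairs overlapped by at least 50% of both peaks (36.8%, interval 16.3 to 61.6), against 36 of the 49 loci within 1 kb of mock (73.5%, 58.9 to 85.1). These intervals overlap only from 58.9 to 61.6, and the difference was not tested. Some of the 19 share an ERβ peak with another of them, so they are not independent. In the classes between, the share was 67.1% (57 of 85 loci) at 1 to 10 kb and 70.4% (38 of 54) at 10 to 100 kb.

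Of the 73 loci with no mock peak within 10 kb of either paired peak, 9 had both scores at 50 or more (12.3%, 5.80 to 22.1). At the 134 loci nearer to mock there were 26 (19.4%, 13.1 to 27.1). These 9 were looked up after their values were seen. The most compact was chr2:114527129-114527480, with an ERα score of 75.4, an ERβ score of 58.1, midpoints 12.5 bp apart and the nearest mock peak 185744 bp away. At chr9:29102216-29102847 the scores were 73.2 and 56.4, and mock was 94282 bp away. At chr4:77415155-77415683 they were 54.7 and 56.9, with mock at 31029 bp. The ERβ peak at chr2:194802640-194803552 scored 102 and was the widest of all partners at 1834 bp, beside an ERα score of 55.6. At chr9:8351269-8351684 the scores were 54.5 and 72.9. The loci chr20:27462604-27463211 and chr9:4408462-4409003 given above belong to this set.

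The remaining 2 of the 9 shared 1 ERβ peak. On chromosome 1, the ERα peaks at 55467898 to 55468697 (score 54.1) and at 55468715 to 55469394 (score 78.4) lie 17 bp apart, and both were paired with the ERβ peak at 55467817 to 55468728 (score 66.4). The ERβ peak overlapped the first by 800 bp and the second by 14 bp. The nearest mock peak, of score 127, was 168907 bp away, although the 1-Mb window around them held 50 mock peaks. In all, 4 ERβ peaks were the partner of 2 loci each, so the 207 loci rest on 203 ERβ partners.

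Some loci lay in local groups, while most had no other locus within 100 kb. Another locus lay within 100 kb of 87 loci (42.0%, 35.2 to 49.1) and within 10 kb of 31. With windows of 20 or more mock peaks left out, another locus lay within 100 kb of 35 of 122 loci (28.7%). No such share is given here for other mock-free ERα peaks. Joined at gaps of up to 100 kb, the 207 loci formed 154 groups, of which 120 held 1 locus, 21 held 2 and 13 held 3 or 4. The tightest group of 4 spanned 5840 bp on chromosome 1, from 11907374 to 11913213. Its ERα scores, in order of position, were 55.8, 59.5, 45.7 and 66.5. The ERβ scores were 56.7 for the first and 111 for the last, and 50.6 for 1 ERβ peak that was the partner of both middle loci. The whole 1-Mb window held only 5 ERα, 10 ERβ and 6 mock peaks, so that 4 of its 5 ERα peaks were loci. The other ERα peak, at 11906225 to 11907039, touched both other lists and scored 122, above all 4 loci. It overlapped mock by 526 bp and lay 334 bp from the first locus. The mock peak nearest to the group, of score 41.8, was 381 bp from its first locus.

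The windows with the most loci were dense in peaks of every list. Windows with 20 or more mock peaks held 85 of the 207 loci (41.1%). Of the other 4178 mock-free ERα peaks they held 357 (8.54%). Chromosome 1 held 7 loci between 55000001 and 56000000, where there were 56 ERα, 56 ERβ and 50 mock peaks, and both scores reached 50 at 4 of the 7. The ERα scores there ran from 50.6 to 90.9 and the ERβ scores from 32.8 to 68.0. The window of chromosome 9 from 8000001 to 9000000 had 6 loci among 34 ERα, 48 ERβ and 35 mock peaks, with ERα scores of 34.7 to 103. Of the 3 windows with 5 loci each, that of chromosome 1 from 54000001 held the leading locus and 30 mock peaks. The others were chromosome 2 from 156000001, with 20 mock peaks, and the first window of chromosome 7, with 35. A total of 93 windows held a single locus.

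The loci were unevenly spread over chromosomes. Chromosome 1 carried 35, chromosome 2 carried 27, chromosome 9 carried 21 and chromosome 7 carried 19. As a share of the mock-free ERα peaks of the same chromosome, the highest values were 10.2% on chromosome 17 (15 of 147, interval 5.82 to 16.3), 9.94% on chromosome 1 (35 of 352, 7.02 to 13.6), 8.05% on chromosome 9 (21 of 261, 5.05 to 12.0) and 7.57% on chromosome 7 (19 of 251, 4.62 to 11.6). The lowest among autosomes with a locus were 0.858% on chromosome 5 (2 of 233, 0.104 to 3.07) and 1.12% on chromosome 6 (3 of 268, 0.231 to 3.24). Chromosome 10 held no locus among 87 mock-free ERα peaks, and a count of 0 allows a share of up to 3.45% taken as 3 counts of 87, or 4.15% by the exact binomial limit. Chromosome X held none among 15, for which these limits are 20% and 21.8%, and chromosome 12 held 1 among 25. Neither Y nor the mitochondrial genome could hold a locus, since neither had a mock-free ERβ peak. The intervals are not adjusted over chromosomes, and local groups of loci make them too narrow.

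Chromosomes differed in how many of their loci lay near mock and in how many had both scores at 50 or more. These counts are small, and the differences were not tested. On chromosome 17 a mock peak lay within 10 kb of 12 of the 15 loci, and both scores reached 50 at 0 of them. On chromosome 9 the numbers were 14 and 7 of 21, and on chromosome 1 they were 28 and 9 of 35. All 10 loci of chromosome 16 had a mock peak within 10 kb, whereas none of the 6 of chromosome 11 and neither of the 2 of chromosome 5 had one. A single locus, at 25145 to 25639 of scaffold KL568458.1, lay outside the chromosomes. Its scores were 48.5 for ERα and 54.1 for ERβ, and a mock peak of score 366 was 608 bp away.

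**Figure D5:**
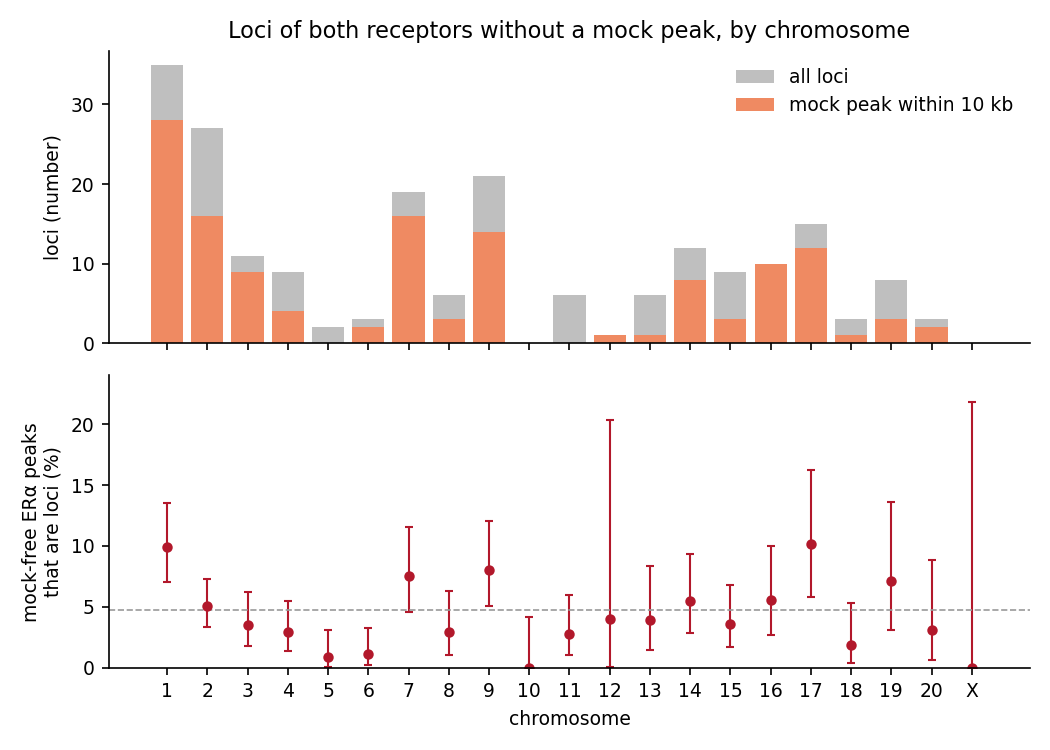
Upper panel, number of loci per chromosome (grey), with those that have a mock peak within 10 kb in orange. Lower panel, share of the mock-free ERα peaks of each chromosome that are loci (percent, 95% exact binomial interval), with the share over all sequences, 4.72%, as a dashed line; chromosomes 1, 9 and 17 lie above it with their whole interval and chromosomes 5, 6 and 10 below it.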

How the data were processed

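ChIP-seq peak lists for ERα, ERβ and mock (1 library each) were used. Reads were paired ends aligned with Bowtie 1.2, per the submitters' processing notes and the labels' protocols, from 200 to 500 pg of DNA per library. The deposited peak names begin with MACS. Not given in the sources used here: the caller's version, cutoff and control, duplicate handling, the genome build and read depth. The deposited score is the authors' number per peak, without a unit. The scaffold names are those of Rnor_6.0. The gene and promoter tables at hand are on another assembly, GRCr8, so genes and sequences at the loci were not analysed here.

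Of 12730 ERβ lines, 2 with damaged positions were left out, 1 of which had a shifted field that passed the width limit of 20000 bp. In the mock list 1 peak was kept without a score. Starts were made 1-based. A distance counts the bases between 2 peaks. Overlap and pairing were tested on simulated lists. The loci, limits and windows were chosen with earlier results of these data known. Named loci are the 10 of lowest and 3 of highest rank sum, those furthest from and nearest to mock, with the smallest and closest overlap, in the fullest 1-Mb windows and off the autosomes. Alternatives changed the overlap, the mock limit, the score, the sequences and the pairing. Intervals came from scipy 1.17.1, run under Python 3.11.15 with pandas 2.3.3 and numpy 2.4.6, and figures from matplotlib 3.10.9.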

Additional observations from a re-analysis of the deposited data

How the results depend on the processing

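The number of loci, 207, was 206 on placed chromosomes and 207 when counted in the ERβ list. It fell to 139 with a reciprocal overlap of 50% and to 153 without receptor peaks within 1 kb of mock. Several other choices moved the number further. It was 311 with receptor peaks up to 1 kb apart, 73 without receptor peaks within 10 kb of mock, 109 in the upper 50% of each receptor list, 366 when mock peaks of score 50 or more alone removed a peak, and 122 without windows of 20 or more mock peaks, a setting chosen after the data were seen. In that order, the share of mock-free ERα peaks was 7.09%, 2.26%, 5.85%, 7.72% and 3.09%; it was 3.17% with the reciprocal overlap, 3.73% without peaks within 1 kb of mock and, of ERβ peaks, 1.79% in the ERβ list. The share of loci with both scores at 50 or more, 16.9%, was 32.1% in the upper 50% of the lists and 23.5% against strong mock peaks alone. In the upper 50% all 35 such loci stay by construction, so the share rises. The share with a mock peak within 10 kb was 52.3% and 0% with the wider mock limits of 1 and 10 kb. Both values fall by construction, since these limits remove the loci nearest to mock. That share was 75.2% in the upper 50%. It was 80.1% against strong mock peaks, and this rise is by construction. At each added locus a paired peak touches a weaker mock peak. Outside dense windows the share was 52.5%, lower in part by construction, since the windows richest in mock peaks were left out. The share with another locus within 100 kb was 8.22% without peaks within 10 kb of mock, 59.8% against strong mock peaks and 28.7% outside dense windows. The share of pairs overlapping by 50% of both was 100% under the reciprocal overlap, by construction, and 75.2% in the upper 50%. It was 43.4% with peaks up to 1 kb apart, where by construction the added pairs share no base. Choosing the ERβ partner by overlap, or keeping the shifted ERβ line (added after the data were seen), moved no value beyond its interval. Where a construction is named, the change follows from the setting at least in part. The causes of the other changes were not tested. No paired analysis was possible because each antibody has 1 library and no result comes from a test. Depth is unknown, so a missing mock call can reflect depth.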
